A study of Sus scrofa with 15 samples.

Results

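A set of genes in cultured pig granulosa cells was higher, or lower, on days 1 and 2 of culture than both before culture and on day 7. Granulosa cells are the hormone-producing epithelial cells that surround the oocyte in the ovarian follicle. The study followed these cells as they lost their identity in culture, with total RNA measured on 15 Affymetrix arrays, and the comparison described here used 12 of them. The groups were GC_0d (cells taken from ovarian follicles, before culture), GC_1d and GC_2d (dedifferentiating cells after 1 and 2 days in culture), GC_4d (dedifferentiating cells after 4 days) and GC_7d(DFOG) (dedifferentiated cells, called DFOG, grown to semiconfluence by day 7), with 3 arrays each. All groups are porcine cells with no gene altered and no agent named. The labels number 3 biological replicates per day without saying whether they were separate animals or cultures, and give no strain, age, follicle size or medium, so the p-values measure the spread between these samples.

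Each probe set had a log2 intensity on each array. The contrast was the mean of days 1 and 2 minus the mean of days 0 and 7, on the log2 scale, so that a positive value means higher on days 1 and 2. A probe set was called when this contrast was at least 1 in size, its Benjamini-Hochberg adjusted p in limma was under 0.05, and the means of day 1 and day 2 both lay beyond the means of day 0 and day 7. Of 23999 probe sets, 379 were called higher (1.58%) and 439 lower (1.83%). Of 6765 genes with a single symbol, each read from its brightest probe set, 121 were called higher (1.79%) and 166 lower (2.45%), which is 287 genes in all. The median contrast of all 6765 genes was 0.02. For 219 of the higher and 222 of the lower probe sets the annotation gives no single symbol, and those are counted but not named. Replicate 1 stood apart from the other replicates of each day: over all probe sets, r within days 0, 1, 2 and 7 was 0.973 to 0.982 between replicate 1 and the others, against 0.992 to 0.996 between replicates 2 and 3. With replicates 2 and 3 alone, 291 probe sets were called higher and 480 lower, and of the named genes called AREG, CRISPLD2, GNL3, KLF10 and TRIM13 were not called.

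Cells that leave a tissue and settle in a dish commonly pause division, respond to handling and serum with a burst of signal-induced transcription, and then resume the cell cycle. Division needs a wave of DNA replication genes before the mitosis genes, and WEE1 kinase and antiproliferative proteins such as BTG1 act against it. Granulosa cells of growing follicles divide in vivo and also store and use lipid for steroid synthesis.

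Genes of cell division were lower on days 1 and 2. Of 22 measured mitosis genes, 21 were called lower and 0 higher, against 2.45% and 1.79% of all genes. The 22 had a median contrast of -1.76 and a range of -2.39 to -0.93. The remaining member, KIF20A, a kinesin of the spindle midzone, had a contrast of -0.93, just under the size limit (adjusted p = 0.000938). Of 15 measured DNA replication genes, 7 were called lower and 0 higher, against the same shares of all genes. The 7 were PCLAF, RRM2, MCM3, CDC45, PCNA, MCM2 and POLE2. With a lower contrast, 13 passed the adjusted p alone, which 814 of all 6765 genes did (12%). The median contrast of the 15 was -0.96. In bulk RNA, a smaller number of dividing cells and less RNA per cell cannot be told apart. The count of replication genes depends on the size limit, and it was 13 with no limit.

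PCLAF, the PCNA-associated factor that works at replication forks, had the widest separation of the lower genes. Its levels were 5.76, 6.36 and 6.97 on day 1 and 7.41, 6.59 and 7.29 on day 2, against 10.53, 10.57 and 10.24 on day 0 and 10.15, 9.88 and 9.31 on day 7. The contrast was -3.38 ± 0.25 SE (10.4-fold lower, adjusted p = 1.87e-06). By day 4, which took no part in the choice of genes, PCLAF was back at 10.79, 9.66 and 9.66. A second, dimmer probe set for PCLAF was lower by less, with a contrast of -0.58 and an adjusted p of 0.0146.

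RRM2, the regulated subunit of ribonucleotide reductase that supplies deoxynucleotides, had 4.82, 4.93 and 5.52 on day 1 and 7.55, 6.88 and 7.38 on day 2, against 9.24, 8.95 and 8.20 on day 0 and 10.10, 9.63 and 9.29 on day 7 (contrast -3.06 ± 0.28, adjusted p = 7.21e-06). Day 1 was the low point, and all 3 arrays of day 2 lay above all 3 of day 1. CDC45, part of the replicative helicase, had 5.93 to 6.47 on day 1 and 6.39 to 6.73 on day 2, against 8.22 to 8.65 on day 0 and 7.88 to 8.12 on day 7, a contrast of -1.87 ± 0.12. MCM3, a subunit of the same helicase, had a contrast of -1.93 ± 0.17. Its levels were 4.55 to 5.98 on days 1 and 2, against 7.05 to 7.81 on days 0 and 7. PCNA, the sliding clamp of DNA polymerases, had a smaller contrast of -1.54 ± 0.15 from a high level, with means of 8.11 on day 1 and 8.74 on day 2, against 10.21 on day 0 and 9.70 on day 7. MCM5, another subunit of the helicase, had a contrast of -0.53 ± 0.16, under the size limit.

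Among the mitosis genes, CCNB2, a B-type cyclin that activates the mitotic kinase CDK1, had 5.99, 6.49 and 6.61 on day 1 and 5.58, 4.85 and 5.46 on day 2, against 8.73, 8.52 and 8.57 on day 0 and 8.10, 7.73 and 7.55 on day 7. Day 2 was the lowest day for CCNB2, and its contrast was -2.37 ± 0.19 (adjusted p = 2.75e-06). CCNB1, the other B-type cyclin measured, had a contrast of -1.98 ± 0.25. HMMR, a microtubule-associated protein of the spindle, had means of 4.47 on day 1 and 4.32 on day 2, against 7.49 on day 0 and 6.07 on day 7. The 2 lower means lie at or below the lower quartile of the arrays, which was 4.41 to 4.68, so the contrast of HMMR, -2.39, is closer to a lower bound on the difference. DLGAP5, a spindle assembly protein, and CEP55, which acts in the final separation of daughter cells, had contrasts of -2.23 and -2.33. CCNB2, HMMR, DLGAP5 and CEP55 were among the genes named for a wide distance between day means. Only genes without overlapping arrays were eligible for that, so their lack of overlap was set by the choice. TOP2A, the topoisomerase of dividing cells, was not named that way, and its arrays overlapped. It had 8.73 to 9.10 on day 1 and 7.03 to 7.57 on day 2, against 11.31 to 11.89 on day 0 and 9.05 to 9.73 on day 7.

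The other genes far down on days 1 and 2 were ranked by the distance between the nearest day means, which is how they were chosen for naming. Of the 14 lower genes named by that distance, 8 belong to the mitosis or replication lists. Those lists hold 28 of the 166 called lower genes and 37 of all 6765 genes. They were chosen with earlier results of these data known, so the 8 are a description only. MELK, a kinase of proliferating cells, had 5.82 to 6.70 on days 1 and 2, against 8.22 to 9.71 on days 0 and 7, a contrast of -2.57 ± 0.21. TCF19, a transcription factor first found as a gene of the G1 to S transition, had a contrast of -2.28, ASF1B, a histone chaperone, of -2.19, ORC1, which marks replication origins, of -1.66, and CENPI, a centromere protein, of -1.53. A second probe set for ASF1B lay at 2.70 to 3.19 on the 15 arrays and was not called. SQOR, the mitochondrial enzyme that oxidizes hydrogen sulfide, is not known as a cell cycle gene. It had 5.03, 5.99 and 5.15 on day 1 and 5.30, 5.28 and 5.15 on day 2, against 6.74, 7.01 and 6.96 on day 0 and 8.07, 7.84 and 7.28 on day 7.

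**Figure D1:**
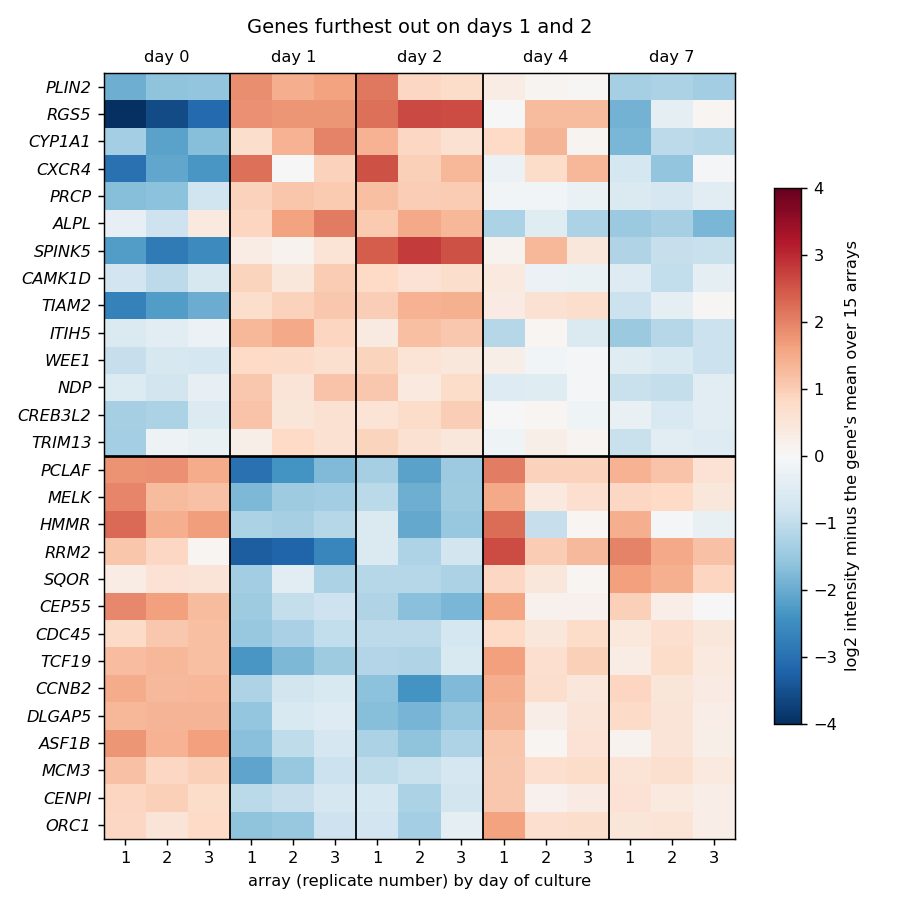
Log2 intensity minus the gene's own mean over 15 arrays (colour, red higher and blue lower) for the 14 higher genes (upper block) and 14 lower genes (lower block) with the widest distance between the nearest day means, with arrays ordered by day of culture and replicate number. The lower block is blue on days 1 and 2 and mostly back to red on day 4, while several genes of the upper block, RGS5 among them, are still raised on day 4.

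The replication and mitosis genes were also compared between day 2 and day 1. The contrast does not use the difference between day 2 and day 1, which was tested separately at an adjusted p under 0.05 and a size of at least 1. Over all probe sets, 2.04% were higher on day 2 and 1.00% lower. Of the 22 mitosis genes, 8 were lower on day 2 than on day 1, 0 were higher, and 21 had a lower mean (median difference -0.94). Of the 15 replication genes, 1 was higher on day 2, 0 were lower, and 10 had a higher mean (median difference 0.40). The difference between the lists was not itself tested. RRM2 was the replication gene that passed, with a difference of 2.18 ± 0.39 (adjusted p = 0.00538), while RPA2 (0.80) and RRM1 (0.58), a single-strand binding protein and the other subunit of ribonucleotide reductase, passed the adjusted p but not the size. TOP2A and CCNB2 were among the mitosis genes that passed, with -1.58 (adjusted p = 0.00859) and -1.06 (adjusted p = 0.0297).

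By day 4, the mean of all 22 mitosis genes was above that of day 2, by a median of 1.84, and so was the mean of all 15 replication genes, by a median of 0.87. The median level of the mitosis list was 9.64 on day 0, 7.51 on day 1, 6.58 on day 2, 8.64 on day 4 and 8.42 on day 7. Between day 7 and day 0, 11 of the 22 were lower on day 7 (7.28% of all probe sets were), against 0 of the 15 replication genes. For the replication list the medians were 8.77, 7.24, 7.27, 8.81 and 8.48 on days 0, 1, 2, 4 and 7.

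**Figure D2:**
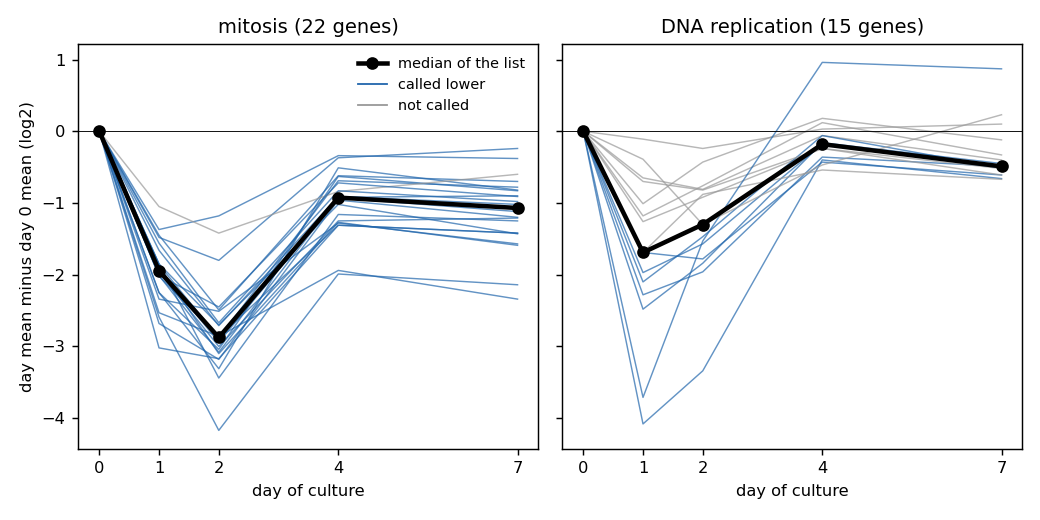
Mean log2 intensity of each day minus the day 0 mean, against day of culture, for the mitosis genes (left) and the DNA replication genes (right), with 1 thin line per gene (blue where called lower on days 1 and 2, grey where not) and a thick line for the list median. The mitosis median is lowest on day 2 and the replication median on day 1, and both turn up before day 4.

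**Figure D3:**
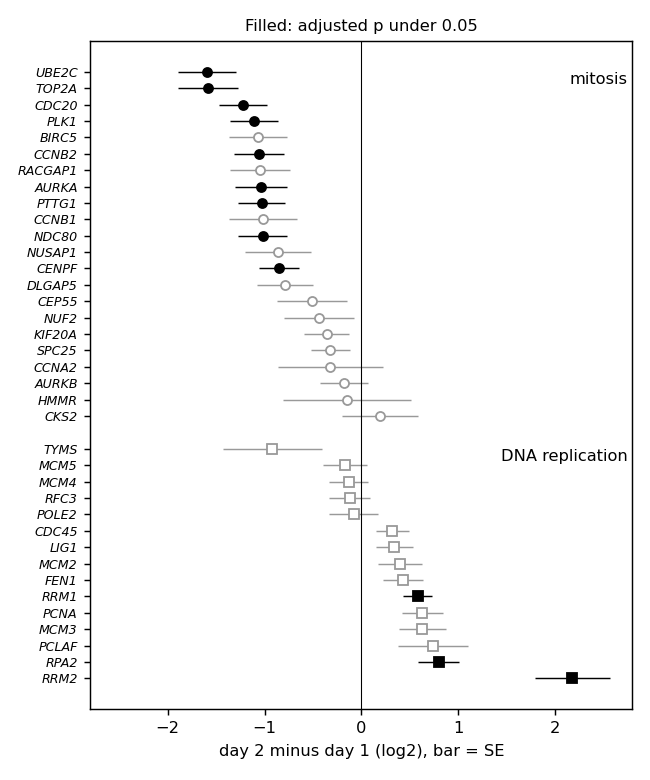
Difference of day 2 minus day 1 (log2, bar = SE) for each mitosis gene (circles, upper block) and each DNA replication gene (squares, lower block), filled where the adjusted p was under 0.05. Of the 22 mitosis genes, 21 lie left of 0, while 10 of the 15 replication genes lie right of it, RRM2 furthest.

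Regulators of division went both ways. WEE1, the kinase that holds CDK1 inactive before mitosis, was higher on days 1 and 2. It had 10.74, 10.73 and 10.61 on day 1 and 10.85, 10.51 and 10.42 on day 2, against 9.03, 9.33 and 9.26 on day 0 and 9.48, 9.36 and 9.09 on day 7. The contrast was 1.38 ± 0.11 (2.61-fold, adjusted p = 2.90e-06). WEE1 differed between day 7 and day 0 by 0.10 ± 0.16 (adjusted p = 0.68). Of 11 measured cell cycle inhibitors and D cyclins, 1 was called higher and 2 lower, against 1.79% and 2.45% of all genes. The higher one was BTG1, an antiproliferative protein, with 11.77 to 12.14 on days 1 and 2, against 10.59 to 11.22 on days 0 and 7 (contrast 1.06). That size is close to the limit, and BTG1 was not called without replicate 1 of day 0 (contrast 0.97) or after a second quantile normalization (0.99). The lower ones were CCND2, the D-type cyclin of granulosa cells, with a contrast of -2.02 ± 0.36, and CDKN2D, an inhibitor of CDK4 and CDK6, with -1.45 ± 0.14. CCND2 came only part of the way back, with means of 12.09, 8.78, 9.93, 10.39 and 10.67 on days 0, 1, 2, 4 and 7. Its arrays of days 1 and 2 overlapped those of days 0 and 7. CDKN1A, the p21 inhibitor, was highest on day 1 (11.42) but its day 2 mean (10.33) lay below that of day 7 (10.64), so it had no transient pattern.

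The higher genes with the widest separation had varied functions. PLIN2, the coat protein of cytoplasmic lipid droplets, had 11.99, 11.59 and 11.73 on day 1 and 12.25, 10.96 and 10.85 on day 2, against 8.18, 8.53 and 8.54 on day 0 and 8.81, 8.86 and 8.75 on day 7. Days 0 and 7 were close to each other (difference 0.39, adjusted p = 0.335), and the contrast was 2.95 ± 0.20 (7.72-fold, adjusted p = 7.77e-07). On day 4, PLIN2 was between the 2 states at 10.18 to 10.41. CYP1A1, a drug-metabolizing cytochrome P450 and a standard target of the aryl hydrocarbon receptor, had 7.29 to 8.66 on days 1 and 2, against 4.54 to 5.63 on days 0 and 7 (contrast 2.69 ± 0.26, 6.47-fold). CYP1A1 stayed at 6.81 to 8.06 on day 4 and was low again on day 7.

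PRCP, a lysosomal carboxypeptidase that cleaves angiotensin and bradykinin products, had tight replicates on both days, at 11.94 to 12.12 on day 1 and 11.99 to 12.21 on day 2, against 9.30 to 10.22 on day 0 and 10.32 to 10.56 on day 7 (contrast 2.03 ± 0.14). CAMK1D, a calcium and calmodulin-dependent kinase, had a contrast of 1.46, and NDP, which encodes the Wnt receptor ligand norrin, one of 1.47. CREB3L2, a membrane-bound transcription factor of the secretory stress response, was 2.83-fold higher (adjusted p = 1.84e-05), with the same mean of 9.38 on days 1 and 2, against 7.59 on day 0 and 8.17 on day 7. In TRIM13, a ubiquitin ligase of the endoplasmic reticulum membrane, days 0 and 7 had the same mean of 8.13, and days 1 and 2 had means of 9.29 and 9.41. The contrast of TRIM13 was 1.22, and 0.98, no longer called, when replicates 2 and 3 alone were used.

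Other members went up in culture and came only part of the way back. RGS5, a regulator of G protein signaling known from pericytes, had the largest contrast of the named genes, 4.70 ± 0.50, or 26.0-fold (adjusted p = 2.37e-05). Its levels were 12.93 to 13.00 on day 1 and 13.38 to 13.79 on day 2, against 4.68, 7.57 and 8.06 on day 0 and 9.26, 10.81 and 11.23 on day 7. RGS5 was therefore also higher on day 7 than on day 0 (3.66, adjusted p = 0.00126). TIAM2, an exchange factor for the GTPase RAC1, had 8.43 to 9.13 on days 1 and 2, against 5.00 to 5.72 on day 0 and 6.85 to 7.75 on day 7. CXCR4, the receptor of the chemokine CXCL12, had 8.27 to 10.49 on day 1 and 9.25 to 10.86 on day 2, against 5.32 to 6.22 on day 0 and 6.71 to 8.26 on day 7 (contrast 2.94 ± 0.41). Replicate 1 was the highest CXCR4 array on both days 1 and 2, and the ranges of days 1 and 7 nearly met.

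SPINK5, a serine protease inhibitor of epithelia, peaked on day 2. It had 6.61 to 7.02 on day 1 and 8.89 to 9.28 on day 2, against 3.66 to 4.26 on day 0 and 5.28 to 5.58 on day 7, and day 2 was above day 1 by 2.27 (adjusted p = 0.000247). ALPL, tissue-nonspecific alkaline phosphatase, ended below its start, with 6.70 to 7.91 on days 1 and 2, against 5.00 to 6.24 on day 0 and 4.00 to 4.52 on day 7. ITIH5, a hyaluronan-binding inhibitor family protein, had 7.95 to 9.10 on days 1 and 2, against 6.99 to 7.33 on day 0 and 6.10 to 6.72 on day 7. The levels of SPINK5 on day 0 and of ALPL on day 7 lie near or below the lower quartile of the arrays, so their contrasts of 3.23 and 2.31 are closer to lower bounds.

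**Figure D4:**
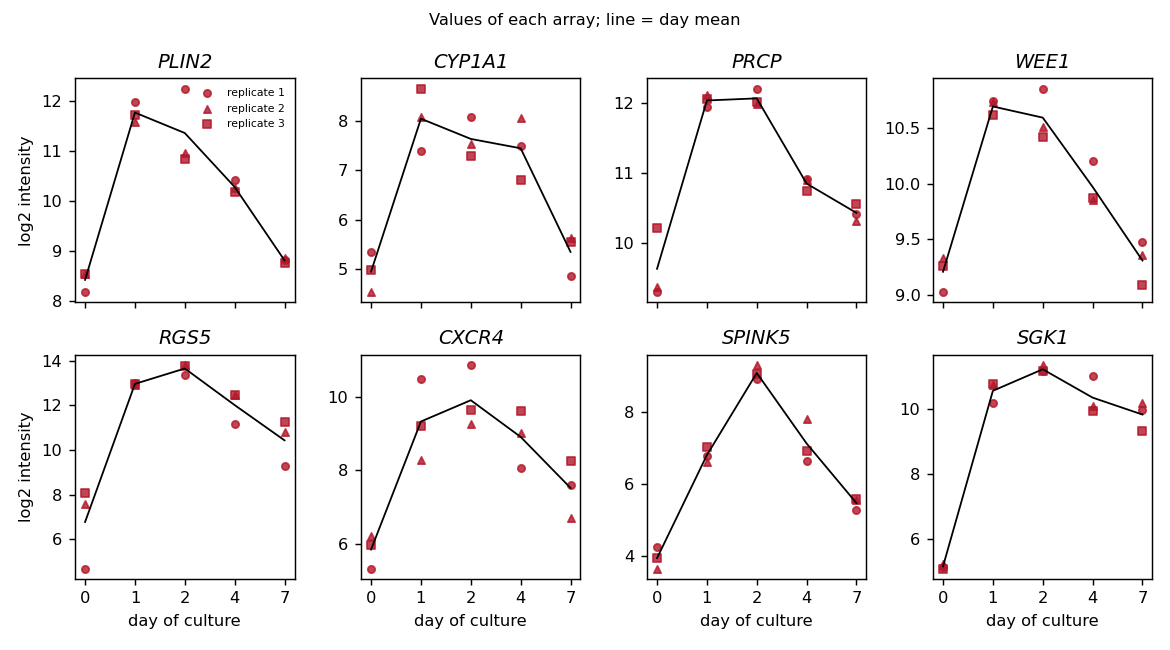
Log2 intensity of each array (points, marked by replicate) and the day mean (line) against day of culture for 8 genes higher on days 1 and 2. PLIN2, CYP1A1 and WEE1 come back near their day 0 level, while PRCP, RGS5, CXCR4 and SGK1 remain above it on day 7, and SPINK5 peaks on day 2.

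Signal-induced genes were the other list with several members called higher. Of 15 measured immediate early genes, 5 were called higher and 1 lower, against 1.79% and 2.45% of all genes, with a median contrast of 0.87. IER2, a small protein induced by growth factors, came nearest to a transient rise, with 9.61 to 10.15 on day 1 and 9.02 to 9.47 on day 2, against 6.82 to 7.97 on day 0 and 7.97 to 8.41 on day 7 (contrast 1.64 ± 0.19, adjusted p = 4.17e-05). FOSL2, a member of the AP-1 transcription factors, had means of 10.06 on day 1 and 9.36 on day 2, against 7.38 on day 0 and 8.72 on day 7. DUSP6, a phosphatase that turns off ERK, had a contrast of 1.20 ± 0.26. MYC, the growth-promoting transcription factor, was instead a step: its means were 9.86 on day 1 and 9.69 on day 2, against 6.34 on day 0 and 9.45 on day 7, so that day 7 stayed 3.11 above day 0 and only 0.24 separated the nearest means. KLF10, a TGF-beta-induced factor, was likewise 2.56 higher on day 7 than on day 0, with only 0.10 between the nearest means.

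The lower member was DUSP1, a stress-induced phosphatase of MAP kinases, with 8.87 to 9.43 on days 1 and 2, against 9.99 to 11.12 on days 0 and 7 (contrast -1.38 ± 0.22). FOS, the classical immediate early gene, was highest before culture (12.96) and fell through the time course to 8.23 on day 7, and ATF3 also began at its highest level (10.12). Neither had the transient pattern. The count of 5 was 3 without replicate 1 of day 2, where KLF10 was among the losses (contrast 1.54), and 3 with replicates 2 and 3 alone.

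Of 11 genes known to respond to glucocorticoids or cyclic AMP, 2 were called higher and 1, DUSP1, lower (1.79% and 2.45% of all genes were). SGK1, a serum- and glucocorticoid-induced kinase, had 10.17 to 10.75 on day 1 and 11.15 to 11.33 on day 2, against 5.09 to 5.24 on day 0 and 9.32 to 10.18 on day 7. Its contrast of 3.39 ± 0.19 (10.5-fold) rests mainly on day 0, since day 7 was 4.66 above day 0. CRISPLD2, a secreted glucocorticoid-responsive protein, had a contrast of 1.10 with only 0.08 between the nearest means, and was not called without replicate 1 of day 0 (0.93) or without replicate 1 of day 7 (0.91).

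A different set of called genes dipped on day 1 and had partly recovered by day 2. INSIG1, the sterol sensor partner that restrains cholesterol synthesis, had 5.94 to 6.30 on day 1 and 7.30 to 8.30 on day 2, against 7.78 to 9.13 on day 0 and 9.72 to 9.98 on day 7, and day 2 was 1.62 above day 1 (adjusted p = 0.0206). A second probe set for INSIG1 had a contrast of -0.92 and was not called. INSIG1 was the 1 gene called lower of 9 cholesterol synthesis and uptake genes (2.45% of all genes were). But all 9 had a contrast below 0 (median -0.82) and 7 passed the adjusted p alone, against 12% of all genes. MSMO1 and FDFT1, enzymes of that pathway, had contrasts of -0.92 and -0.78. VLDLR, a lipoprotein receptor, had a contrast of -1.53 and rose by 1.05 between day 1 and day 2 (adjusted p = 0.0395). Its second probe set was not called.

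CRELD2, a chaperone-like protein of the endoplasmic reticulum, was the 1 gene called lower of 16 endoplasmic reticulum chaperones (2.45% of all genes were). Of the 16, 14 had a contrast below 0 and 9 passed the adjusted p alone, all lower, against 12% of all genes. CRELD2 had means of 7.41 on day 1 and 8.80 on day 2, against 9.25 on day 0 and 9.54 on day 7. In 15 of the 16 the mean was higher on day 2 than on day 1, and 8 passed that test, against 2.04% of all probe sets (median difference 1.10). HSPA5, the main chaperone BiP, had 13.16 on day 0, 12.13 on day 1, 13.05 on day 2, 12.99 on day 4 and 12.97 on day 7, so its dip was on day 1 alone. A low point on day 1 was also measured in SLC16A3, a lactate exporter, whose means were 7.86, 5.57, 7.48, 9.01 and 9.01 on days 0, 1, 2, 4 and 7, and in P4HA2, a collagen prolyl hydroxylase, with 9.16, 7.66, 8.76, 10.49 and 10.77. VEGFA, the vascular growth factor, had a contrast of -1.17, but only 1 of its 4 probe sets was called, and not without replicate 3 of day 2 (-1.07).

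Genes of granulosa identity and steroid synthesis were mostly outside the pattern. Of 21 identity genes, 1 was called higher and 0 lower, against 1.79% and 2.45% of all genes (median contrast -0.09). That gene was GATA4, a transcription factor of gonadal somatic cells, with 9.63 to 10.97 on days 1 and 2, against 8.47 to 9.52 on days 0 and 7. Its contrast of 1.07 ± 0.22 was not called without replicate 1 of day 1 (0.90) or without replicate 2 of day 7 (0.98), and its second probe set had a contrast of 1.13 ± 0.52 but was not called (adjusted p = 0.163). INHA, the inhibin subunit that marks granulosa cells, fell through the whole course with means of 14.26, 12.95, 10.21, 8.07 and 7.05 on days 0, 1, 2, 4 and 7. The receptor FSHR had its lowest mean on day 1 (5.68) and its highest on day 2 (8.24), so days 1 and 2 lay on opposite sides. FOXL2, another defining marker, had a dim probe set, with day means of 5.67 to 5.93. The brightest of 4 probe sets for CYP19A1, aromatase, had day means of 4.93 to 5.26, and another had 2.99, 3.43, 4.97, 4.00 and 3.80 on days 0, 1, 2, 4 and 7 (contrast 0.81, adjusted p = 0.0256).

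Of 17 steroid synthesis genes, 1 was called higher and 2 lower, against 1.79% and 2.45% of all genes. HSD17B7, an enzyme that acts in both sterol and estradiol synthesis, had 8.51 to 10.14 on days 1 and 2, against 7.13 to 7.40 on day 0 and 8.17 to 8.28 on day 7. SCARB1, the receptor for high-density lipoprotein, had a contrast of -1.41, and day 7 minus day 0 was -1.84 (adjusted p = 9.38e-07). TSPO, a mitochondrial cholesterol-binding protein, had a contrast of -1.21 with 0.19 between the nearest means, and was not called without replicate 1 of day 2 (-1.07). Of the 11 genes of the insulin-like growth factor system, 1 was called lower and 1 higher, against 2.45% and 1.79% of all genes. IGF1 was called lower (-1.62 ± 0.17), on 2 of its 3 probe sets, and IGFBP6 higher (1.81 ± 0.29), on both of its probe sets. IGFBP6 stayed raised, with day 7 2.35 above day 0 and only 0.18 between the nearest means (0.21 in the second probe set). IGFBP6 was not called without replicate 3 of day 1 (1.68), where its day means no longer had the required order.

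Several called genes in other lists were raised mainly on 1 of the days or stayed raised. EPCAM, an epithelial adhesion protein, was high on day 2 alone, with 4.27 to 5.58 on day 1 and 8.96 to 9.27 on day 2, against 4.23 to 4.53 on day 0 and 3.69 to 4.79 on day 7. AREG, an EGF receptor ligand of the ovulatory response, was highest on day 1, with means of 6.90 on day 1 and 5.09 on day 2, against 4.98 on day 0 and 3.76 on day 7. On day 2 it had 6.81 in replicate 1 but 4.30 and 4.15 in replicates 2 and 3. AREG was not called without replicate 1 of day 0 (1.36), of day 1 (1.34) or of day 2 (1.19). The levels of EPCAM on days 0 and 7 and of AREG on day 7 lie near or below the lower quartile of the arrays. For EPCAM only 0.40 separated the nearest means, those of days 0 and 1. PLAT, tissue plasminogen activator, stayed raised, at 11.41 on day 7 against 8.21 on day 0. PTGS1, a cyclooxygenase, did so as well, with 7.14 on day 7 against 5.44 on day 0, and a second probe set of it had a contrast of 0.87. PTGS2, the inducible cyclooxygenase, lay below the lower quartile on every day.

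Ribosome biogenesis genes mostly stayed below the size limit. Of 29 measured, 1 was called higher and 0 lower, against 1.79% and 2.45% of all genes, and the median contrast was 0.56. With the adjusted p alone, 19 passed with a higher contrast and 0 with a lower one, against 15% and 12% of all genes. The called gene was GNL3, the nucleolar GTPase nucleostemin, with means of 10.37 on day 1 and 9.47 on day 2, against 7.72 on day 0 and 9.25 on day 7. GNL3 was not called without replicate 1 of day 2 (contrast 1.25). The mean of day 2 was below that of day 1 in 28 of the 29 (median difference -0.58). NPM1, an abundant nucleolar protein, had a contrast of 0.13 (adjusted p = 0.647).

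Lists of general cell functions held few or no called genes. Over all genes, 38.8% had an unadjusted p under 0.05, so the counts at that level below are near or under the background for several lists. In limma, 0 of 29 proteasome genes, 0 of 29 cytosolic ribosomal proteins and 0 of 16 respiratory chain genes were called, with 10, 3 and 2 at an unadjusted p under 0.05. The same count was 0 of 24 for the actin cytoskeleton and 0 of 21 for the extracellular matrix, with 15 and 13 at an unadjusted p under 0.05. Of 8 tRNA synthetases, 0 were called, but 5 passed the adjusted p alone with a higher contrast (15% of all genes did) and 7 had an unadjusted p under 0.05 (median contrast 0.53). Their median levels were 9.60, 10.90, 10.59, 10.69 and 10.76 on days 0, 1, 2, 4 and 7. Of the 8, 6 were higher on day 7 than on day 0, against 9.36% of all probe sets. Of 11 TGF-beta and BMP targets, 0 were called and 7 passed the adjusted p alone with a higher contrast (median 0.72), with 9 at an unadjusted p under 0.05. The median levels of these targets were 6.94, 8.37, 9.39, 9.33 and 9.01, and 6 of the 11 were higher on day 7 than on day 0. In both lists day 0 was the low day, and the median stayed raised on day 7. ID1, a transcriptional inhibitor and one of those targets, had a contrast of 0.96, with means of 11.26 on day 1 and 11.44 on day 2, against 9.73 on day 0 and 11.06 on day 7.

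Not every gene that moved on the first days belongs here. TRH, the thyrotropin-releasing hormone gene, had means of 4.92, 4.94, 9.56, 10.45 and 8.77 on days 0, 1, 2, 4 and 7, and so rose after day 1 and stayed. CLIC2, a chloride channel family protein, spiked on day 1 alone (8.85), with a day 2 mean (4.82) below that of day 0 (5.35). JAKMIP1, a microtubule-associated protein, was low on day 1 (5.38) against 6.45 on day 0, and ended at 3.39.

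The contrast alone does not show that both days differ from both days 0 and 7. Without the condition on the day means it was passed by 574 probe sets higher (2.39%) and 653 lower (2.72%). Of the called probe sets, the nearest day means were at least 1 apart in 77 of the higher and 110 of the lower, and under 0.5 apart in 158 and 147. At the edge, MLLT11 was called with 0.001 between its nearest means, and ARAP2 was left out at -0.002. At the size limit, SPECC1 was called at 1.010 and ABCB6 at -1.002, while EGR1 was left out at 0.999 and ANAPC4 at -0.997. All 6 arrays of days 1 and 2 lay outside all 6 of days 0 and 7 in 190 of the 379 higher and 249 of the 439 lower probe sets, against 2.26% and 1.90% of all probe sets. Of the called genes this held for 52 of 121 higher and 100 of 166 lower ones, against 2.97% and 2.71% of all genes. The same arrays chose the called probe sets, so shares above those of all probe sets follow from the choice and are a description only.

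**Figure D5:**
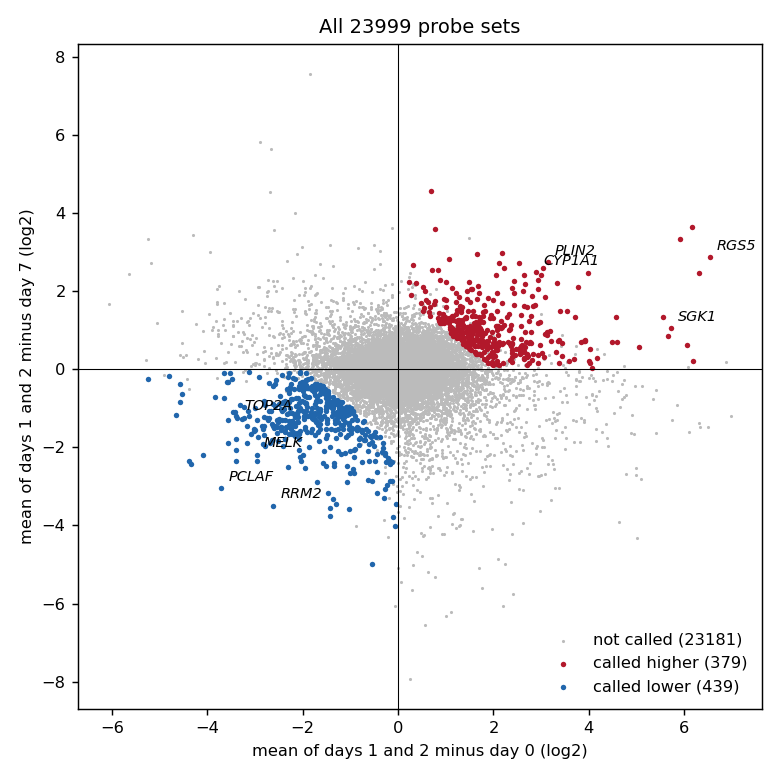
Mean of days 1 and 2 minus day 0 (horizontal, log2) against mean of days 1 and 2 minus day 7 (vertical, log2) for 23999 probe sets, with the 379 called higher in red and the 439 called lower in blue. PLIN2 and CYP1A1 lie far from both axes, while SGK1 lies nearer the horizontal one, its distance being mainly from day 0.

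A stricter test asked for all 4 differences at once (day 1 and day 2, each against day 0 and day 7), taking the largest of the 4 p-values in limma. It was passed by 30 probe sets higher and 30 lower (0.125% each) and by 11 genes higher (0.163%) and 9 lower (0.133%). The higher genes were PLIN2, CYP1A1, PRCP, CAMK1D, TIAM2, WEE1, NDP and CREB3L2, with CDC42SE2, KDM1A and KDM6A, whose contrasts were under the size limit. The lower genes were PCLAF, MELK, SQOR, CDC45, TCF19, CCNB2, MCM3, CENPI and ATG4A. These counts are fragile. They were 9 higher and 10 lower without replicate 1 of day 7, 10 and 9 without replicate 2, and 10 and 13 without replicate 3. Without replicates 1, 2 and 3 of day 2 they were 14 and 16, 9 and 7, and 10 and 14. Without replicates 2 and 3 of day 1 they were 17 and 19, and 14 and 18, and without replicates 2 and 3 of day 0 they were 15 and 14, and 18 and 20.

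Some called probe sets differed between the first and the last day, and others did not pass that test. Between day 7 and day 0, which the contrast does not compare, 152 of the 379 higher probe sets were higher on day 7, 15 lower, and 212 did not pass. Of the 439 lower probe sets, 160 were lower on day 7 than on day 0, 55 higher, and 224 did not pass. Over all probe sets, 9.36% were higher on day 7 and 7.28% lower. Between day 2 and day 1, 350 of the higher and 391 of the lower probe sets did not pass. On day 4, the mean was still beyond both days 0 and 7 in 294 of the 379 higher probe sets (77.6%) and in 177 of the 439 lower ones (40.3%). Among all probe sets with the same order of day means, called or not, those shares were 54.4% and 56.1%.

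Several probe sets measured the same gene in 96 of the called genes. In 42 of them at least 2 probe sets were called alike, in 28 all were, and in 0 was one called in the opposite direction.

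Array quality and other cell types were set beside these results. The second principal component of the 15 arrays (16.9% of the variance) ran from -63.8 to -16.6 on days 1 and 2, against 25.6 to 33.2 on days 0 and 7 and 13.8 to 23.3 on day 4. The actin 3′ minus 5′ difference, a measure of RNA integrity and labelling, was 0.02 to 1.01 on days 1 and 2, against 0.19 to 1.68 on days 0 and 7, and that of GAPDH was 0.22 to 1.02 against 0.10 to 1.16. The third component (13.1%) set replicate 1 of every day apart, at 29.4 to 48.1, against -41.4 to -5.8 for replicates 2 and 3. The calls lost without an array of replicate 1 are given beside AREG, BTG1, CRISPLD2, GATA4, GNL3, KLF10 and TSPO. The control ranges of days 1 and 2 and of days 0 and 7 overlap, and their part in the results was not tested. Replicate 2 of day 4 had the highest values of the 15 arrays, 2.12 for actin and 2.14 for GAPDH. That array is part of the day 4 means and of the shared spread. Without it, 382 probe sets were called higher and 438 lower. Of 53 measured markers of macrophages, lymphocytes and granulocytes, endothelium, theca and stroma, red blood cells and oocytes, 0 were called in limma, and 13 had an unadjusted p under 0.05, of which 8 were among the 11 theca and stromal markers. The mean level of the macrophage markers was 4.73 to 5.15 on days 1 and 2, against 4.70 to 5.03 on days 0 and 7. Theca and stromal markers averaged 6.28 to 7.42 on days 1 and 2, against 5.80 to 8.72 on days 0 and 7. Of these 11, 9 had a contrast below 0 (median -0.56), 4 passed the adjusted p alone with a lower and 2 with a higher contrast, and 1 was called lower when all probe sets of a gene were averaged. The summed intensity of the theca and stromal list was 2473 to 10384 on days 1 and 2, against 1429 to 28119 on days 0 and 7, and its part in the results was not tested. AIF1, CD4, CD8A, PTPRC, CDH5, KDR and DDX4 lay below 4.68, the highest lower quartile of the arrays, on all 15.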

How the data were processed

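Total RNA of pig granulosa cells was measured on 15 Affymetrix arrays, 3 for each of 5 days. The deposited values are log2 intensities. Per the submitters' processing notes they were made with RMA (robust multi-array averaging), of which no version is named. Levels near or below the lower quartile of the arrays were read as bounds where the text says so, and precision is limited by having 3 arrays a day. Leaving out 124 controls from 24123 probe sets, 10069 had 1 symbol, 198 several and 13732 none. Positions are not given, for want of a build.

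A linear model with 1 mean for each day and empirical Bayes was fitted over the 15 arrays (limma 3.58.1, R 4.3.3), with p-values adjusted by Benjamini-Hochberg over 23999 probe sets. The fits were tested on simulated data. The stricter test took the largest of 4 one-sided p-values, doubled and adjusted alike. Named genes were the 14 with the widest gap in each direction among called genes without overlapping arrays, up to 4 called members of each of 40 gene lists by size of contrast, the 2 brightest members not called of lists described, genes fixed by name, and those next to a limit; others (MCM2, POLE2, DUSP6, the genes passing all 4 differences and markers at the lower quartile) were named after their values were seen. Members and lists were chosen with earlier results of these data known. DDIT4, also fixed by name, had no named probe set. Alternatives changed the scaling, filter, size limit, day set, replicates and test.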

Additional observations from a re-analysis of the deposited data

How the results depend on the processing

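The 59 named genes that were called kept their sign under each of the 23 alternatives run for named genes (fewer for those too dim for a filter), and the numbers called moved with the limits. The median contrast of all probe sets was 0.013, and -0.001 after cyclic loess. After cyclic loess 308 probe sets were called higher and 464 lower (39.9% higher), and BTG1, CRISPLD2 and GATA4 were not called. Against 379 higher and 439 lower probe sets, there were 1659 and 1261 with no minimum size (56.8% higher, against 46.3%), 152 and 205 with a minimum of 1.5, 574 higher with the contrast alone, and 227 higher with days 0, 4 and 7 as the reference. Leaving out 1 array at a time gave 335 to 408 higher and 411 to 460 lower. The replicate block gave 397 and 440. For all 4 differences, against 30 higher and 30 lower, the counts were 63 and 54 with the replicate block, 53 and 68 with replicates 2 and 3 only, and 156 and 174 with array weights, whose estimation stopped before its tolerance was reached. Leaving out 1 array gave 9 to 27 and 7 to 28. The causes were not tested.

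Replicate numbers are shared between days, but the labels do not say that a number marks a shared animal or day. The correlation of same-numbered deviations was 0.061 to 0.573, over 0.1 in 17 of 18 pairs, and all 12 arrays correlated best with their own number. The block is therefore given here only. It changed no call of a named gene.

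Between day 2 and day 1, 14 of the called higher probe sets were lower on day 2 (22 with replicates 2 and 3 only, 28 with array weights, 8 to 20 leaving out 1 array) and 15 were higher (28, 37 and 12 to 23). Of the called lower ones, 22 were lower on day 2 (34 with the replicate block, 55 with replicates 2 and 3 only, 44 with array weights, 7 to 27 leaving out 1 array) and 26 higher (53 with replicates 2 and 3 only, 49 with array weights, 16 to 31). Between day 7 and day 0, leaving out 1 array gave 132 to 170 higher and 11 to 23 lower among the called higher (8 lower with replicates 2 and 3 only), and 46 to 57 higher and 133 to 169 lower among the called lower. The alternatives for these counts, and those for list counts other than replicates 2 and 3 alone, leaving out replicate 2 of day 4 and averaging probe sets, were chosen after seeing the data. Of 59 named genes called, 49 stayed called under each of those 23 alternatives that could fit them, other than the 1.5 minimum, which lost 14. AREG, EPCAM and HMMR were not fitted without the dimmest 40%, and the fits with no minimum size, the contrast alone, days 0, 4 and 7 as the reference and the test against 0.5 were run for counts only. The other 10 are AREG, BTG1, CRISPLD2, GATA4, GNL3, IGFBP6, KLF10, TRIM13, TSPO and VEGFA. Mitosis genes called lower numbered 19 to 22 of 22 throughout.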
